A study of Mus musculus with 4 samples.

Results

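Pre-alveolar macrophages of the mouse lung at embryonic day E17.5 were chosen by measured RNA, as the immune cells that carried RNA of Ear2, Lpl, Plet1, Abcg1 and Gal. A cell was a member when it had a unique molecular identifier (UMI, one counted RNA molecule) for at least 3 of the 6 immune genes Ptprc, Tyrobp, Fcer1g, Spi1, Laptm5 and Coro1a and for at least 3 of those 5 marker genes, and when C1qa, C1qb and C1qc together stayed under 1000 CPM (the count of a gene scaled to a fixed total of UMIs per cell). The gate took 1365 of 2721 immune cells and of 7479 cells from 3 lungs, with 480 members in lung 1, 346 in lung 2 and 539 in lung 3. The 3 lungs were wild-type C57BL/6 lungs at E17.5, each dissociated with trypsin and collagenase, treated to lyse red cells and profiled as 1 single-cell RNA sequencing library. A further library of the series, made from sorted Tbx4-lineage, αSMA-positive fibroblasts at E16.5, held 2 cells that passed the gate among 3085 and was not used further. Whether the animals were littermates is not stated. Every p-value below covers how class differences varied over these 3 samples, a spread that may be partly technical. Much of the variance behind the limma p-values was shared between genes, as given with the processing.

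Alveolar macrophages live on the air side of the lung, where they take up and break down surfactant, the lipid film that the epithelium secretes. In the mouse they arise around birth from fetal monocytes that seed the lung. Granulocyte-macrophage colony-stimulating factor (GM-CSF) and transforming growth factor beta drive this step and induce the nuclear receptor PPARγ, which controls lipid handling genes. C1q-expressing tissue macrophages are a separate macrophage population of the fetal lung, marked by complement C1q and by genes such as Mrc1, Pf4 and Apoe.

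The 5 marker genes have unlike roles. Ear2 encodes a secreted eosinophil-associated ribonuclease, Lpl the lipoprotein lipase that frees fatty acids from triglyceride, Plet1 a surface protein attached by a lipid anchor, Abcg1 a transporter that exports cholesterol, and Gal the neuropeptide galanin. The promoters of Ear2 and Plet1, from among the 5 marker genes, are shown for the 250 bases before the annotated start, from RefSeq on build GRCm38.p6. Ear2 is on the plus strand at chr14:44102404-44102653 and Plet1 on the plus strand at chr9:50494275-50494524. Capitals mark the letters TTGCNNAA, a C/EBP motif, read on either strand.
Ear2: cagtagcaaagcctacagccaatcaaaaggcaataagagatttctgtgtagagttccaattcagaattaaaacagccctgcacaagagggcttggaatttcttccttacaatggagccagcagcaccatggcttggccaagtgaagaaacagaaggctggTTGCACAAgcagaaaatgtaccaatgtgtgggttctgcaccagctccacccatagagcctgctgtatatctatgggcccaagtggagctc
Plet1: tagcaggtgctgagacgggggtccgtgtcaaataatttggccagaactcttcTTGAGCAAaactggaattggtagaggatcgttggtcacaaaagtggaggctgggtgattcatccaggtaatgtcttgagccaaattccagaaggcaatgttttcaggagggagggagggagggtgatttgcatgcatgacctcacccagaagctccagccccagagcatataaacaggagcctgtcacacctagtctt
Each window held 1 match to TTGCNNAA, which 9.56% of 32851 promoter windows of this length also held. The PU.1 motif GAGGAA matched neither window, against 23.3% of all windows, and the nuclear receptor half-site AGGTCA matched Plet1 alone, against 14.02% of all windows. The Gal window held none of the 3 motifs, on either strand, and Lpl and Abcg1 were not matched in the promoter table. A match of letters is a description of the sequence and not a binding site.

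The members were selected on the marker genes, so their levels are given as a description with no test. Ear2 averaged 508, 473 and 563 CPM in members of lungs 1, 2 and 3, and 6.40, 5.97 and 5.85 CPM in non-immune cells. Lpl averaged 506, 573 and 551 CPM in members. Plet1 averaged 222, 250 and 289 CPM. The lungs thus lay close together for each of these genes. Abcg1 averaged 222, 252 and 240 CPM and Gal 218, 227 and 237 CPM in members. Outside the gate the genes were not equally low: cells of the monocyte gate, defined below, held 154, 122 and 170 CPM of Ear2 and 38.1, 48.0 and 44.4 CPM of Gal, whereas C1q-high cells held 19.6, 41.0 and 25.5 CPM of Ear2. Lpl stood at 67.5, 118 and 109 CPM in C1q-high cells, above its 27.9, 25.3 and 34.8 CPM in non-immune cells.

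**Figure D1:**
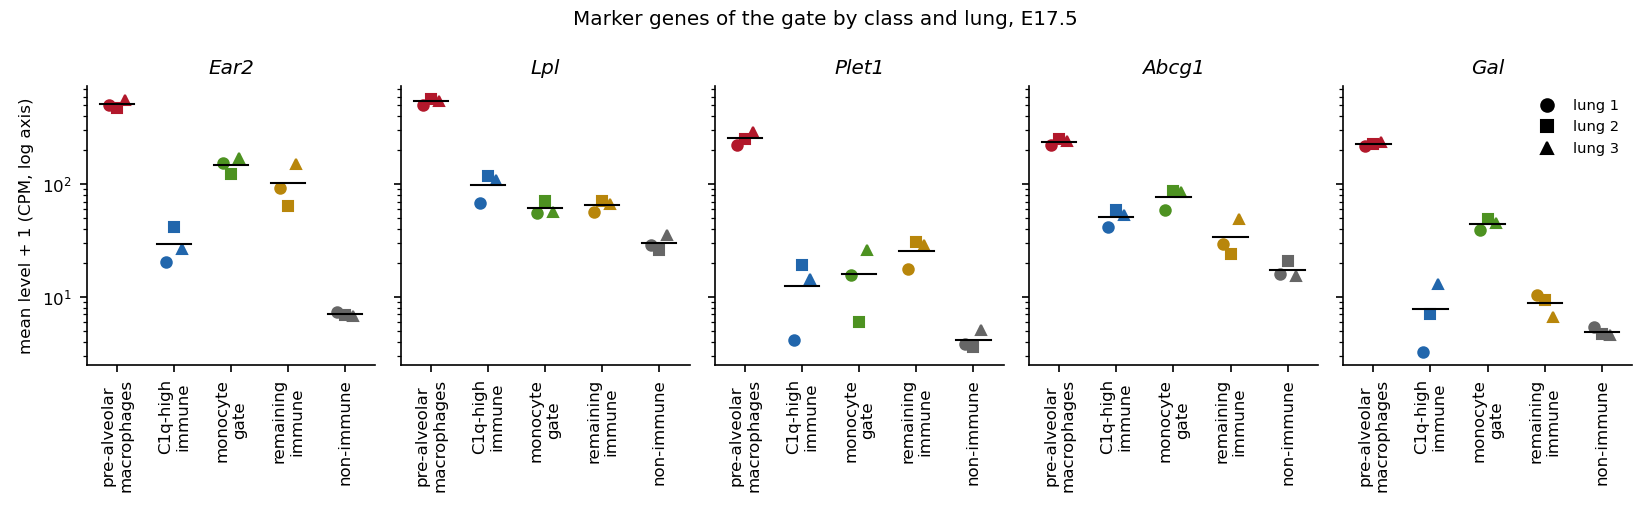
Mean level of each marker gene of the gate (CPM + 1, log axis) in 5 classes of E17.5 lung cells; symbols are the 3 lungs and bars their mean. In every panel the 3 lungs of the pre-alveolar macrophages sit above every other class, which the gate fixes.

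Members differed in how much of the marker set they carried. Exactly 3 genes were detected in 178, 103 and 205 members, 4 genes in 204, 149 and 211, and all 5 in 98, 94 and 123. Ear2 was the most often detected gene, with a UMI in 93.8% ± 0.170 (SD, n = 3 lungs) of members, and Gal was found in 62.7% ± 2.27. Ear2 and Lpl were detected together in 81.8% ± 1.28 of members and Plet1 and Gal in 37.8% ± 2.42. With each cell drawn down to 2000 UMIs, Ear2 was found in 54.4%, 56.9% and 61.6% of members and in 1.29%, 1.27% and 1.65% of non-immune cells. Just inside the gate, members with exactly 3 genes averaged 463, 438 and 509 CPM of Ear2 and 115, 86.0 and 142 CPM of Plet1. Just outside it, C1q-low immune cells with exactly 2 genes (112, 98 and 106 cells) averaged 294, 205 and 412 CPM of Ear2 and 43.8, 60.9 and 73.6 CPM of Plet1. Those of them without markers of another lineage, defined below (89, 67 and 78 cells), averaged 328, 264 and 519 CPM of Ear2. Their Plet1 averaged 40.3, 78.7 and 89.5 CPM. In lung 3 their Ear2 lay above that of members with exactly 3 genes, which were not filtered in this way. The C1q limit cut through few cells: 330, 258 and 431 members had no C1q UMI at all, and 0, 6 and 8 C1q-high cells carried 3 or more marker genes.

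Members made up 48.9% (exact 95% binomial interval 45.7 to 52.1), 47.9% (44.2 to 51.6) and 53.1% (49.9 to 56.2) of immune cells in lungs 1, 2 and 3. Across lungs this was 49.9% ± 2.75 (SD, n = 3) of immune cells and 18.1% ± 2.07 of all cells, and the intervals cover counting error only. The share depends on the gate, at 32.4% with 4 of 5 genes required and 61.7% with 2 of 5.

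Library quality was similar in the 3 lungs, which held 2682, 2140 and 2657 cells at medians of 7979, 8494 and 7201 UMIs per cell. Members had medians of 7769.5, 7691.5 and 6820 UMIs, below the 9201.5, 10082 and 8151 of other immune cells. A doublet caller marked 14, 16 and 11 members, or 2.92%, 4.62% and 2.04%, against 2.79%, 2.92% and 1.05% of other immune cells. Markers of another lineage (at least 2 of 4 epithelial, 2 of 3 endothelial or 3 of 4 mesenchymal genes) were found in 12.3%, 14.2% and 8.53% of members, against 44.8%, 48.3% and 36.5% of other immune cells. All 14 epithelial genes of the list were detected in members in lungs 1 and 3 and 13 in lung 2, with summed levels of 2334 to 3697 CPM. Pairs of lungs shared 10, 12 and 9 cell barcodes, of which 1 was a member in both libraries.

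Members were compared with C1q-high immune cells (99, 62 and 98 cells) in one limma fit, on log2(CPM + 10) of the class means per lung with lung as a block. The same fit held cells of the monocyte gate (142, 116 and 145 cells), which are C1q-low immune cells with under 3 marker genes and at least 2 of Ccr2, Ly6c2, F13a1 and Plac8. The gate genes were left out of the tests. Because the classes were cut from the same cells' RNA, a gene that goes with the gate genes from cell to cell differs in part by construction. Both comparisons share the member values.

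Against C1q-high cells, members held less RNA of the C1q-high macrophage list, most cell cycle genes tested were higher, and lipid handling genes were called in both directions. Pf4, a platelet and macrophage chemokine, averaged 7.11, 6.87 and 6.13 CPM in members and 2651, 1882 and 2325 CPM in C1q-high cells, a log2 difference of -7.09 (SE 0.13, limma adjusted p = 9.6e-19). Apoe, the lipid-carrying apolipoprotein E, averaged 603, 623 and 488 CPM against 20651, 21613 and 19952 CPM (-5.17, SE 0.08, limma adjusted p = 5.5e-20). Fn1, which encodes the matrix protein fibronectin, went the other way, with 561, 543 and 570 CPM in members and 54.3, 64.3 and 35.5 CPM in C1q-high cells (3.24, SE 0.11, limma adjusted p = 2.0e-14). No lung of one class overlapped the other for any of these genes. Of 6988 genes tested, 49.3% differed at a limma adjusted p under 0.05, with 1803 (25.8%) higher and 1642 (23.5%) lower in members, and 319 and 512 of these differed at least 2-fold.

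All 26 tested genes of the C1q-high macrophage list were lower in members, with a median log2 difference of -3.41 beside 0.03 over all tested genes. The C1q limit separates these classes, so genes that go with C1q differ in part by construction and the count is a description. The transcription factor Maf, which sustains tissue macrophage identity, averaged 5.76, 4.46 and 4.34 CPM against 432, 412 and 439 CPM. Csf1r, the receptor for macrophage colony-stimulating factor, averaged 94.3, 115 and 107 CPM against 1056, 1206 and 923 CPM. Neither gene overlapped between the classes in any lung. The fractalkine receptor Cx3cr1 (log2 difference -4.01), the surface protein F4/80 encoded by Adgre1 (-2.81) and the mannose receptor Mrc1 (-2.81) were lower as well by the same test. Fcrls, Ccl12 and Ms4a7 completed the 5 genes with the largest falls among those of at least 100 CPM in the higher class, at -5.75, -5.69 and -4.90.

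Lysosomal and scavenger genes were mostly lower in members than in C1q-high cells. Of 31 lysosome genes, 23 were lower and 3 higher, with a median of -0.91. Over all tested genes the median was 0.03, with 23.5% lower and 25.8% higher. The protease legumain, encoded by Lgmn, averaged 91.4, 92.7 and 105 CPM against 1191, 1145 and 1194 CPM. Psap, the precursor of the saposins that help break down sphingolipids, was among the 3 that were higher, at 1937, 2015 and 2077 CPM against 1351, 1419 and 1443 CPM (0.51, SE 0.04, limma adjusted p = 4.6e-09). Lysozyme Lyz2 was another, at 0.87. Of 26 scavenger, pattern and Fc receptor genes 20 were lower, led by Stab1 at -4.07, and the 4 higher ones were Marco, Axl, Clec4e and Tlr2. Axl, a receptor for dying cells, averaged 346, 359 and 372 CPM against 170, 164 and 195 CPM.

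Lipid genes were split. Of 34 lipid handling genes 18 were higher, 6 lower and 10 not called, with a median of 0.40 beside 0.03 over all tested genes, and the lower ones included the abundant Apoe. Fabp5, a fatty acid carrier, averaged 430, 428 and 464 CPM in members and 128, 181 and 215 CPM in C1q-high cells (1.31, SE 0.12, limma adjusted p = 3.6e-08). Nceh1, which hydrolyses cholesteryl esters, averaged 62.4, 78.0 and 70.0 CPM against 9.34, 11.5 and 12.5 CPM. Acsl1, which activates fatty acids, and Cpt1a, which brings them into mitochondria, differed by 1.28 and 1.23. Cd36, a fatty acid receptor, was among the lower genes at -1.13. Of 15 tested alveolar macrophage genes 9 were higher and 3 lower (Mrc1, Clec4n and Wfdc17), with a median of 1.01. Over all tested genes 25.8% were higher and 23.5% lower. Cd9, a tetraspanin membrane protein, averaged 680, 660 and 781 CPM against 137, 141 and 149 CPM. F7, coagulation factor VII, averaged 37.0, 46.1 and 54.5 CPM against 5.36, 0 and 1.45 CPM.

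GM-CSF and transforming growth factor genes did not move together. Of 25 tested, 5 were higher and 12 lower than in C1q-high cells, where 25.8% of all tested genes were higher and 23.5% lower. Pparg averaged 64.6, 64.6 and 72.2 CPM in members and 22.6, 23.3 and 19.7 CPM in C1q-high cells (1.27, SE 0.15, limma adjusted p = 8.8e-07). Bhlhe40, a transcription factor of macrophage proliferation, differed by 1.80 and Csf2rb, the shared beta chain of the GM-CSF receptor, by 0.75. The alpha chain Csf2ra averaged 87.3, 83.7 and 93.3 CPM against 102, 111 and 120 CPM (-0.30, SE 0.11, limma adjusted p = 0.023), a call lost without lung 2 (adjusted p = 0.105), without lung 3 (adjusted p = 0.101) and with DESeq2 (adjusted p = 0.159). Tgfbr1 and Tgfbr2, the receptor chains for transforming growth factor beta, differed by -0.67 and -0.56, and neither call held with the gate applied to cells thinned to 3000 UMIs (limma adjusted p = 0.127 and 0.135). Against the monocyte gate 7 of the 25 genes were higher, 5 lower and 13 not called, where 16.7% of all tested genes were higher and 10.9% lower. There Tgfbr1, Tgfbr2, Pparg and Bhlhe40 were called higher and Csf2ra and Csf2rb2 lower, and Csf2rb was not called.

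Cell cycle genes were higher and immediate early genes lower in members. Of 20 S phase genes 14, and of 26 G2 and M phase genes 24, were higher than in C1q-high cells and none was called lower. Over all tested genes 25.8% were higher and 23.5% lower. Top2a, a DNA topoisomerase of dividing cells, averaged 117, 128 and 136 CPM against 30.2, 53.6 and 25.0 CPM. Glycolysis genes were higher in 11 of 17 and lower in 1. Against the monocyte gate 2 of these 17 were higher and 4 lower, with a median of -0.20. Over all genes tested against that gate 16.7% were higher and 10.9% lower, with a median of 0.08. Slc16a3, Pkm and Eno1 were higher than in C1q-high cells and lower than in the monocyte gate. Of 26 immediate early and stress genes 24 were lower and 1 higher than in C1q-high cells. Jun averaged 389, 363 and 351 CPM against 1892, 1459 and 1609 CPM. Immediate early genes respond to tissue dissociation, and its part in this difference was not tested.

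**Figure D2:**
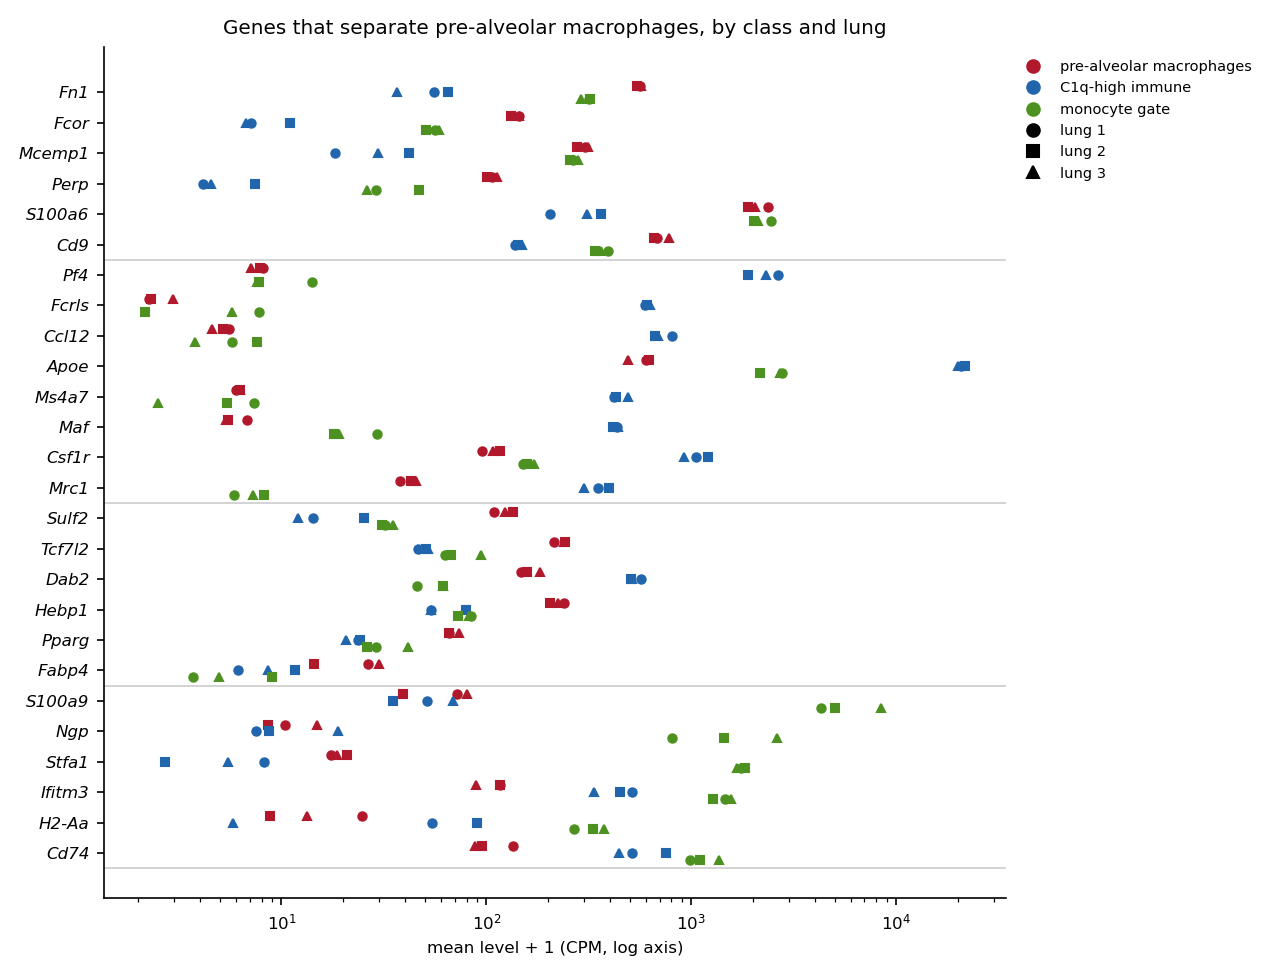
Mean level (CPM + 1, log axis) of 26 genes in pre-alveolar macrophages, C1q-high cells and cells of the monocyte gate; symbols are lungs. Pf4 stands at 6.13 to 7.11 CPM in members and at 1882 to 2651 CPM in C1q-high cells, and Sulf2 is highest in members.

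The monocyte gate did not hold monocytes alone. Its summed granulocyte and mast cell gene level was 14308, 16493 and 25885 CPM, against 632, 408 and 651 CPM in members, and granule genes marked 5.63%, 5.17% and 11.7% of its cells. Its epithelial genes summed to 5661, 3250 and 4819 CPM. Its class II antigen-presentation and dendritic cell genes summed to 2165, 2429 and 2866 CPM, against 484, 426 and 413 CPM in members. Values are therefore also given for a cleaned monocyte gate, without cells that carried at least 2 granule genes, at least 2 marker genes or markers of another lineage, a choice made after the data were seen.

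Against the monocyte gate, members held more RNA of Sulf2, Tcf7l2, Perp, Dab2 and Hebp1 and less of granule, monocyte and antigen-presentation genes. Sulf2, an enzyme that trims sulfate from heparan sulfate, averaged 108, 134 and 122 CPM in members and 31.1, 29.9 and 33.9 CPM in the gate (1.66, SE 0.16, limma adjusted p = 1.4e-07). Tcf7l2, a transcription factor of Wnt signalling, averaged 212, 241 and 239 CPM against 62.2, 66.2 and 93.3 CPM. Dab2, an endocytosis adaptor, averaged 147, 156 and 181 CPM against 45.0, 60.4 and 60.1 CPM. Against the cleaned gate the log2 differences of Sulf2, Tcf7l2 and Dab2 were 1.95, 2.03 and 1.88. Of 6984 genes tested 27.6% differed by limma, with 1166 (16.7%) higher and 764 (10.9%) lower, and the count of higher genes was 733 without lung 1 and 642 without lung 3. The split of calls moved with scaling: 60.4% of calls were higher in members here, 45.8% after median-of-ratios scaling and 44.9% with edgeR.

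Among genes of at least 100 CPM in the higher class, the largest falls were in neutrophil genes and did not all hold in the cleaned gate. S100a9, a calcium-binding protein of neutrophils and monocytes, averaged 71.2, 38.2 and 79.1 CPM against 4300, 5040 and 8424 CPM, a log2 difference of -6.34 that became -2.23 in the cleaned gate. The cleaning used Ngp and Camp, so their cleaned values are not a result. BC100530 and Stfa1 belong to a family of near-identical stefin genes, whose reads cannot be assigned with certainty. The difference of BC100530 was -6.52 in the gate and -0.53 (limma adjusted p = 0.32) in the cleaned gate, where it was no longer called.

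Ifitm3 and Cd74 were lower in members against the gate as written and against the cleaned gate. Ifitm3, an interferon-induced membrane protein, averaged 115, 116 and 88.1 CPM in members and 1458, 1271 and 1569 CPM in the gate, with log2 differences of -3.63 and, cleaned, -4.35. Cd74, the invariant chain of class II antigen presentation, averaged 134, 94.4 and 87.5 CPM against 986, 1103 and 1366 CPM (-3.34, and -3.86 cleaned). The cleaning did not select on class II genes, so cells that carry them may remain in the cleaned gate. Of 19 tested monocyte genes 13 were lower and 2 higher, and of 10 class II and dendritic cell genes 8 were lower. Over all tested genes 10.9% were lower and 16.7% higher. The gate selects on monocyte genes, so genes that go with them differ in part by construction and the counts are a description. Lyz2 averaged 5257, 4950 and 5180 CPM in members and 12767, 12303 and 14673 CPM in the gate. Lyz2 was thus intermediate in members, above C1q-high cells and below the monocyte gate.

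Against the monocyte gate, where 16.7% of all tested genes were higher and 10.9% lower, more genes of both lists were called higher than lower. Of 15 alveolar macrophage genes 8 were higher, 3 lower and 4 not called, with a median of 0.94 beside 0.08 over all tested genes. The lower ones were Wfdc17, Chil3 and Lyz2. Of 34 lipid genes 11 were higher, 4 lower and 19 not called, with a median of 0.20. Pparg averaged 28.0, 25.2 and 40.6 CPM in the gate (0.92, SE 0.15, limma adjusted p = 0.00013). Fabp4, a fatty acid carrier, averaged 25.6, 13.4 and 28.8 CPM in members against 2.71, 7.96 and 3.94 CPM. Axl (1.31), the cytokine Il18 (1.27) and Cd9 (0.94) were higher by the same test. Mrc1, lower than in C1q-high cells, was higher than in the monocyte gate, at 36.8, 41.8 and 44.3 CPM against 4.86, 7.19 and 6.25 CPM. Of 20 S phase genes 13 and of 26 G2 and M phase genes 11 were higher, and 19 of 26 immediate early genes were lower.

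**Figure D3:**
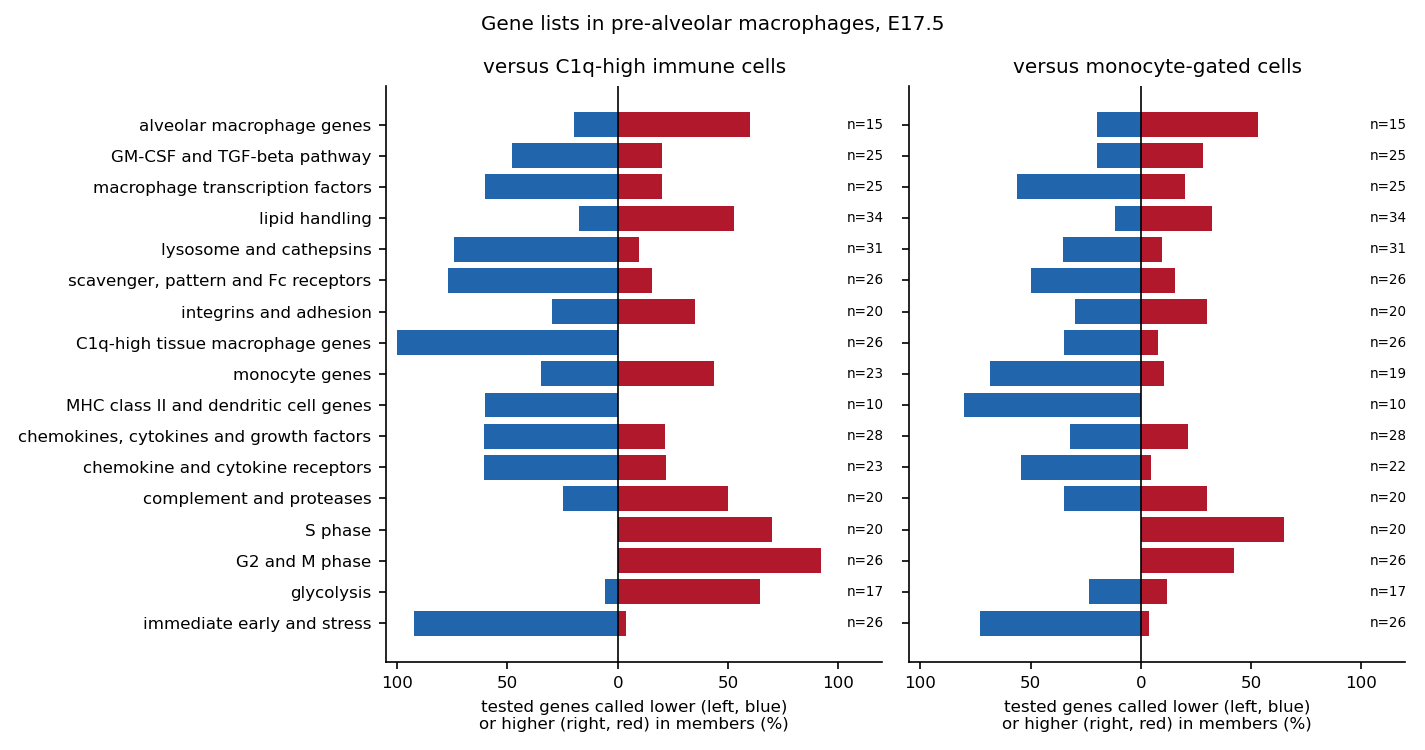
Percent of the tested genes of each list called higher (red, right) or lower (blue, left) in pre-alveolar macrophages by limma at an adjusted p under 0.05, against C1q-high cells and against the monocyte gate; n is the number tested. All 26 C1q-high macrophage genes were lower in the first comparison, which the C1q limit fixes in part, and 9 of 26 in the second.

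Against all other immune cells pooled, 60.8% of 7372 genes differed by limma, with 1993 (27.0%) higher and 2489 (33.8%) lower in members. Much of the comparator carried RNA of other lineages, as given above, and all 13 tested epithelial genes, 10 of 11 endothelial genes and 10 of 11 mesenchymal genes were lower in members. Among genes of at least 100 CPM in the higher class, the 12 largest rises were Sulf2, Fcor, Tcf7l2, Axl, Hebp1, Adipor2, Sh2d1b1, Tnfaip2, Fn1, Cd302, Il18 and Snx10, at 1.86 down to 1.32. Each of them was also higher than in a cleaned comparator without cells of other lineages or with 2 or more marker genes, at 1.05 to 2.20. The genes were picked from these same cells and the cleaning drops cells near the gate, so this is a description and not support. The rises were smaller, at 0.89 to 1.59, with cells of other lineages removed from both classes, and at 0.59 to 1.04 with the gate applied to cells thinned to 3000 UMIs, where each was still called. Adipor2, an adiponectin receptor, averaged 205, 206 and 236 CPM in members and 63.2, 68.3 and 87.3 CPM in the pool. Mrc1 was lower than in the pool at -0.67 but higher, at 1.56, than in the C1q-low part of it. Under the same limit the 8 largest falls, BC100530, S100a9, Ngp, Stfa1, Camp, Pf4, Retnlg and Lcn2, ran from -5.98 to -4.61. The median of all genes stood at -0.04 and at 0.14 after median-of-ratios scaling, where 66.0% rather than 44.5% of calls were higher in members.

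Several genes of mature alveolar macrophages were close to absent from members. Siglecf, a surface lectin that marks the mature cells, had 1, 1 and 3 UMIs over all members of lungs 1, 2 and 3. Itgax, the integrin CD11c, had 11, 12 and 12 UMIs, and Krt79 had 3, 0 and 4. Chil3, a chitinase-like protein, had 1, 16 and 12 UMIs and was lower than in the monocyte gate. With a UMI in 2.08%, 3.47% and 1.86% of members, Itgax was seen in few cells at this depth. Other genes of the same list were present, Car4 and Marco at low levels and Cd9 and Lyz2, given above, at higher ones. Against the pooled other immune cells 10 of 17 tested list genes were higher and 6 lower, where 27.0% and 33.8% of all tested genes were. The lower ones were Krt19, Wfdc17, Chil3, Mrc1, Mgll and Lyz2. Car4, a carbonic anhydrase, averaged 25.8, 25.6 and 27.9 CPM in members and 2.68, 4.19 and 1.44 CPM in the pooled other immune cells (1.52, SE 0.11, limma adjusted p = 1.2e-08). The size of this difference depends on the pseudocount, at 2.93 with 1 and 0.53 with 50, and was 3.19 with edgeR. Marco, a scavenger receptor, averaged 16.1, 27.7 and 34.6 CPM against 4.57, 0 and 26.6 CPM in C1q-high cells and 0, 1.05 and 3.21 CPM in the monocyte gate. Lung 3 of the C1q-high cells overlapped the members for Marco, and that call was lost without lung 2 (limma adjusted p = 0.052) and without a filter on low values (limma adjusted p = 0.076). Of the 32 list genes in the files, 15 passed the level filter in the comparisons with C1q-high and monocyte gate cells, so 17 were not tested there.

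The ribonuclease relatives of Ear2 were uneven. Ear1 averaged 14.3, 15.7 and 14.7 CPM in members, with 128 UMIs in all, and stayed at 0 to 3.53 CPM in C1q-high and monocyte gate cells. Ear6 and Ear10 had 1 UMI each. These genes are close copies, so reads of Ear1 and Ear2 may have been assigned to one another.

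C1q-low immune cells without markers of another lineage were also ordered by how many of the 5 marker genes they carried, as a description with no test. Cells with none, 1 and 2 genes numbered 52, 57 and 89 in lung 1, 35, 42 and 67 in lung 2, and 63, 83 and 78 in lung 3. The low end was rich in granulocyte RNA: S100a8, which neutrophils and monocytes express, stood at 33046, 34002 and 31936 CPM in cells with none, 5953, 4434 and 8000 CPM in cells with 1 gene and 452, 243 and 402 CPM in cells with all 5. Its part in the orders below was not tested. Pparg ran from 14.1, 2.64 and 25.6 CPM in cells with none to 101, 69.5 and 85.1 CPM in cells with all 5. Ly6c2, a surface protein of inflammatory monocytes and a gene of the monocyte gate, ran the other way, from 715, 521 and 461 CPM to 45.7, 40.5 and 51.3 CPM. Cd74 stood at 998, 2563 and 1783 CPM in cells with none, 3170, 2312 and 2112 CPM in cells with 1 gene, and 32.5, 55.2 and 43.2 CPM in cells with all 5, so it was highest with 1 gene in lungs 1 and 3. Cells with 2 genes, which the gate leaves out, lay between the ends for Pparg, at 47.8, 35.8 and 67.1 CPM. Median depth was lowest in cells with no marker gene, at 6374.5, 5972 and 4674 UMIs, and its part in the order was not tested.

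**Figure D4:**
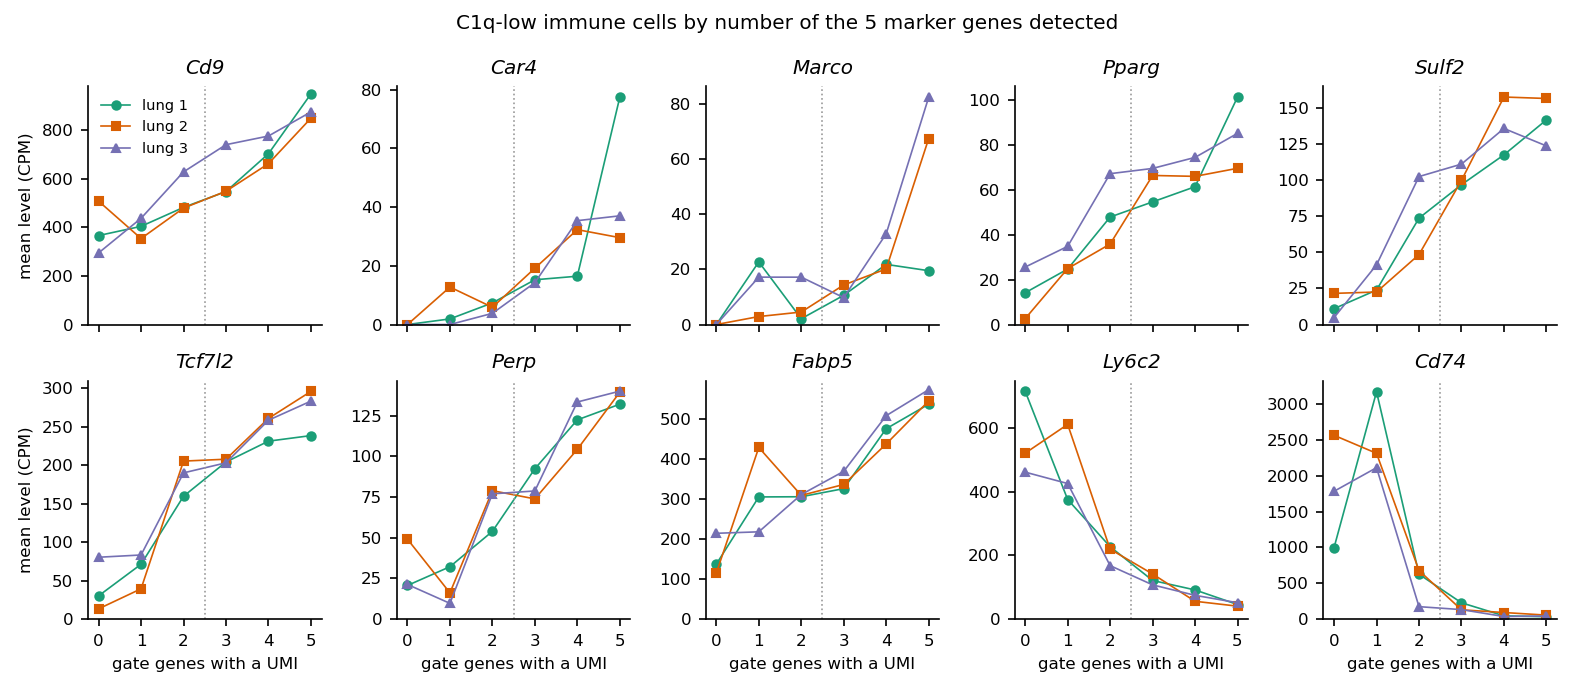
Mean level (CPM) of 10 genes in C1q-low immune cells by the number of marker genes with a UMI, one line per lung; the dotted line is the gate. Ly6c2 stands at 461 to 715 CPM in cells with none and at 40.5 to 51.3 CPM in cells with all 5.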

How the data were processed

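Gene by cell tables of 3 E17.5 lungs and 1 E16.5 sort were used. Per the file headers and values, the authors deposited a normalized signal in which each cell sums to its library's median. Of the values above 0, 100% were whole multiples of the cell's smallest value within 0.01, so the recovered whole-number UMI counts were used for CPM and for the count tests. Cell Ranger 1.3.1 and Seurat 3.0.0 are named in the submitters' processing notes, without their roles, and no source used here names a genome build.

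Cells were gated in Python 3.11.15, and class means of per-cell CPM per lung were tested with limma 3.58.1 (log2(CPM + 10), mean of at least 10 CPM, lung as block, trended eBayes, Benjamini-Hochberg adjustment over all tested genes, threshold 0.05). In limma the median prior degrees of freedom were 12.9 against other immune cells, 14.6 against C1q-high cells and 14.7 against the monocyte gate. The residual degrees of freedom were 2, 4 and 4, so the variances leaned mostly on other genes. The count tests were edgeR 4.0.16 and DESeq2 1.42.0 on summed UMIs. Fits were tested on simulated data. Doublets were called with Scrublet in scanpy 1.11.5 and kept, except in one alternative.

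The lung block was used because both classes of a pair come from the same lung; deviations of the classes from their means correlated by 0.08 to 0.38 over genes. Genes were named as the 12 largest rises and 8 largest falls against other immune cells, 5 and 5 in the other comparisons (at least 100 CPM in the higher class, same direction in 3 of 3 lungs), the leading called genes of each list and a set of macrophage genes; others of the lists were named after their values were seen. The members and the 24 gene lists were chosen with earlier results of these data known.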

Additional observations from a re-analysis of the deposited data

How the results depend on the processing

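Counts of called genes and the sizes of named differences both depended on the processing. Of 143 named differences, 58 moved by over 1.5 times with a pseudocount of 50, 14 with a pseudocount of 1, 20 with the gate on thinned cells, 11 with edgeR and 12 with DESeq2, and 13 were no longer called with the thinned gate. Of these differences, Mrc1 against other immune cells was the only result that changed sign under any alternative run, at 1.56 against C1q-low immune cells, a comparator that holds no C1q-high cells. Against all other immune cells, genes higher and lower in members numbered 1013 and 754 with a mean of at least 50 CPM, 3149 and 1622 after median-of-ratios scaling, and 768 and 731 with the gate on cells thinned to 3000 UMIs. Lower genes there numbered 5094 with no filter, 1604 with DESeq2, 1430 with cells of other lineages removed and 1440 with the cleaned comparator. Against C1q-high cells the counts were 969 and 675 with a mean of at least 50 CPM, higher genes numbered 1036 with DESeq2 and lower genes 1043 with the thinned gate. Against the monocyte gate they were 692 and 489 with a mean of at least 50 CPM and 390 and 390 with the thinned gate, and higher genes numbered 728 with no filter, 735 from summed UMIs, 741 with edgeR and 283 with DESeq2. On the recovered counts edgeR called 2315 higher and 2403 lower genes against all other immune cells, 1622 and 1692 against C1q-high cells, and 741 and 909 against the monocyte gate. The stricter level filter tests fewer genes; the cause of the other shifts was not tested. Leaving out each lung in turn gave 642 to 860 higher genes against the monocyte gate. Without the replicate block, which pairs classes of one lung, higher and lower counts were 1823 and 2315, 1726 and 1578, and 1046 and 702 in the 3 comparisons. The share of members among immune cells was 32.4% with 4 of 5 genes, 61.7% with 2 of 5, 34.2% with the thinned gate and 60.9% with cells of other lineages removed. Alternatives on other lineages and on the cleaned classes were chosen after seeing the data. With 3 lungs and 62 to 99 C1q-high cells in each, small differences of low genes were not resolved at this depth.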
